A study of Schmidtea mediterranea with 35 samples.

Results

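The comparison described here is that of p53 RNAi with unc22 RNAi at day 6 of treatment in X1 cells of the planarian Schmidtea mediterranea. It was made on 8 of the 35 libraries of the series, 4 after p53 RNAi and 4 after unc22 RNAi, chosen by their labels alone. X1 cells are taken by flow cytometry after Hoechst staining and are the dividing neoblasts, the stem cells of the animal. All animals were of CIW4, a single clonal line, and were fed bacteria that express double-stranded RNA, 3 times at intervals of 3 days. Animals of the p53 group received double-stranded RNA of p53, and animals of the unc22 group received that of unc22, which the series' design text calls non-targeting. The 4 libraries each of zfp1 RNAi at days 6 and 13, and the p53 and unc22 libraries of days 9 (8 libraries) and 13 (7 libraries), serve below to show where the day 6 comparison differs. The labels give no age of the animals and do not say how many were pooled in a library.

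Neoblasts are the dividing cells of a planarian and replace every cell type of the body, the epidermis among them. p53 is the planarian homolog of the vertebrate tumour suppressor, a transcription factor known in vertebrates for halting the cell cycle after DNA damage. In planarians its transcript has been described in young descendants of neoblasts and in neoblasts fated to the epidermis, and zfp1 as a zinc finger gene of the same epidermal class. The series title gives the purpose of the study as finding factors of neoblast differentiation, and the day 6 comparison asks which transcripts differ at the earliest sampled day after p53 RNAi.

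The file holds RPKM (reads per kilobase of transcript scaled to the library) for 25462 transcripts. Whole reads recovered from them summed to 5822137 to 17296913 per library after p53 RNAi, and to 8385967 to 13939902 after unc22 RNAi. Between 738 and 1989 transcripts were at 0 in the p53 libraries, against 695 to 2007 in the unc22 libraries, so the groups overlapped in depth and in detection. 3 libraries of other groups stood apart in the series by the number of transcripts at 0, from 4546 to 5021. 2 were zfp1 libraries, replicate 1 of day 6 and replicate 5 of day 13, and 1 was replicate 5 of the unc22 libraries of day 13. None of them is among the 8 libraries compared, but they enter the estimate of the spread. The file does not pair its identifiers with gene names. The level of p53 could therefore not be read to check the knockdown, the neoblast markers could not be read to check the sort, and no transcript below is given a name or a function.

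p53 RNAi lowered 133 transcripts and raised 79 at day 6, out of 19206 that passed the filter on low values (at least 1 RPKM in at least 3 of the 35 libraries). The called transcripts were 1.1% of those tested, 0.692% lower and 0.411% higher. A call is an adjusted p under 0.05 in limma with Benjamini-Hochberg adjustment over all tested transcripts. The falls were larger than the rises. The median log2 fold change of the lower transcripts was -1.09, and 81 of 133 fell by at least 1, 19 by at least 2 and 5 by at least 3 on this scale, log2(RPKM + 1). The median of the higher transcripts was 0.82, and 16 of 79 rose by at least 1, none by 2 or more. Over all tested transcripts the median absolute log2 fold change was 0.15. In sorted bulk RNA, fewer cells of a type and less RNA per cell cannot be told apart. Without the 3 libraries that stood apart, 218 were called higher and 199 lower, in place of 79 and 133. With library quality weights in limma-voom on the recovered reads 530 were higher and 426 lower, and with a filter on the mean (5 RPKM or more) the counts were 47 and 47. A fit on the 8 libraries alone called 145 higher and 149 lower.

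**Figure D1:**
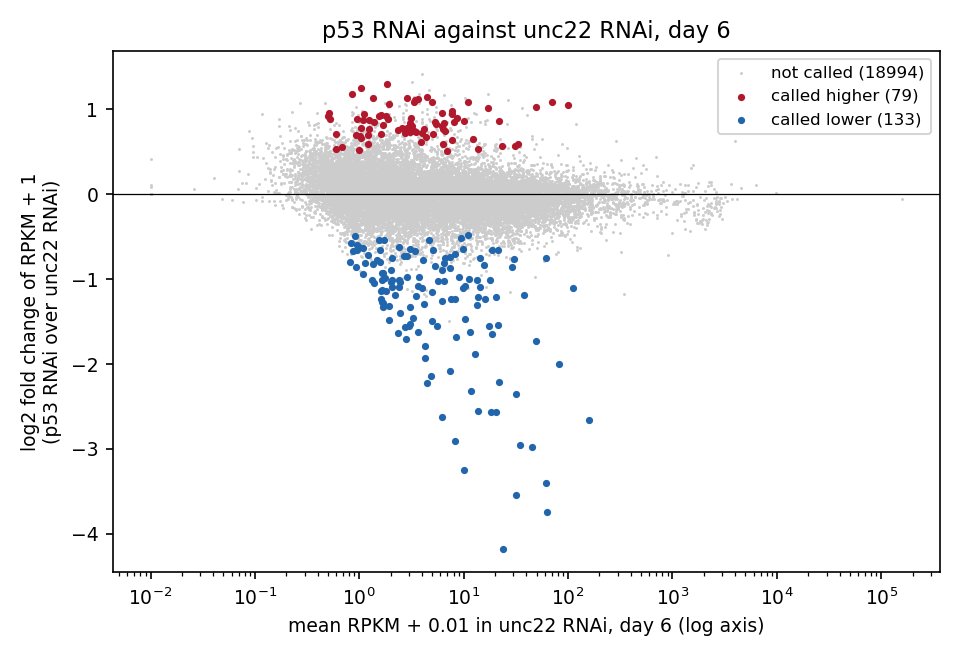
Log2 fold change of RPKM + 1 (p53 RNAi over unc22 RNAi, y axis) against the mean RPKM + 0.01 of the unc22 libraries at day 6 (x axis, log scale) for 19206 tested transcripts. Blue points are the 133 called lower, which reach -4.18, red points the 79 called higher, which reach 1.30, and grey points those not called.

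In 132 of the 133 falls and 77 of the 79 rises the p53 and unc22 libraries did not overlap. The calls were made on these same libraries, so this separation is a description and no further support. Over all tested transcripts 3.97% had every p53 library below every unc22 library, and 4.48% every p53 library above. The smallest change called was 0.48 in size among the falls and 0.51 among the rises. A further 34 transcripts changed by at least 1 on the log2 scale but were not called, 10 of them lower and 24 higher. Their median SE was 0.36 among the lower and 0.42 among the higher, against 0.23 over all tested transcripts. Pairs of p53 libraries differed by a median absolute log2 difference of 0.201 to 0.266 over the tested transcripts, and pairs of unc22 libraries by 0.130 to 0.227. Pairs of a p53 and an unc22 library differed by 0.176 to 0.336. The typical transcript thus differed between the groups by about as much as between libraries of 1 group.

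The transcript with the largest fall was SMED30011419. It was at 0.298, 0.237, 0.535 and 0.322 RPKM in the p53 libraries, against 30.7, 20.1, 25.7 and 18.5 RPKM in the unc22 libraries. Every p53 library was far below every unc22 library. Leading transcripts of comparisons within day 6 were taken only from those whose libraries did not overlap. On the log2 scale the difference was -4.18 ± 0.32 (SE; limma, adjusted p = 6.9e-11). Behind these values stood 1 to 3 reads in each p53 library, 8 in all, and 597 reads over the unc22 libraries. The pooled level was 1.38% of that in the unc22 libraries, with an exact (Clopper-Pearson) 95% interval of 0.594% to 2.74% for counting error only.

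SMED30023874 was next, with 3.99, 4.09, 3.04 and 4.00 RPKM in the p53 libraries against 57.2, 63.6, 64.7 and 65.8 RPKM in the unc22 libraries. The groups stood far apart and neither was spread widely, with 3.78 ± 0.494 RPKM (SD, n = 4) after p53 RNAi and 62.8 ± 3.83 RPKM (SD, n = 4) after unc22 RNAi. This made a log2 fold change of -3.74 ± 0.20 (SE; limma, adjusted p = 1.2e-14). The calls of SMED30011419 and SMED30023874 held under all of the alternatives run.

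The leading rises were those of weakly expressed transcripts. SMED30008464 was at 6.44, 5.93, 6.58 and 4.98 RPKM after p53 RNAi, against 1.88, 1.59, 1.86 and 1.95 RPKM after unc22 RNAi. SMED30005036 was at 4.26, 3.50, 4.45 and 3.22 RPKM after p53 RNAi, against 0.747, 1.29, 1.08 and 1.03 RPKM after unc22 RNAi. In both, the lowest p53 library was well above the highest unc22 library. Their log2 fold changes were 1.30 ± 0.21 (SE; limma, adjusted p = 1.8e-04) and 1.25 ± 0.18 (SE; limma, adjusted p = 4.5e-05). On a scale that adds 1 RPKM, changes of transcripts this low are understated. Both calls held under all of the alternatives run for them.

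**Figure D2:**
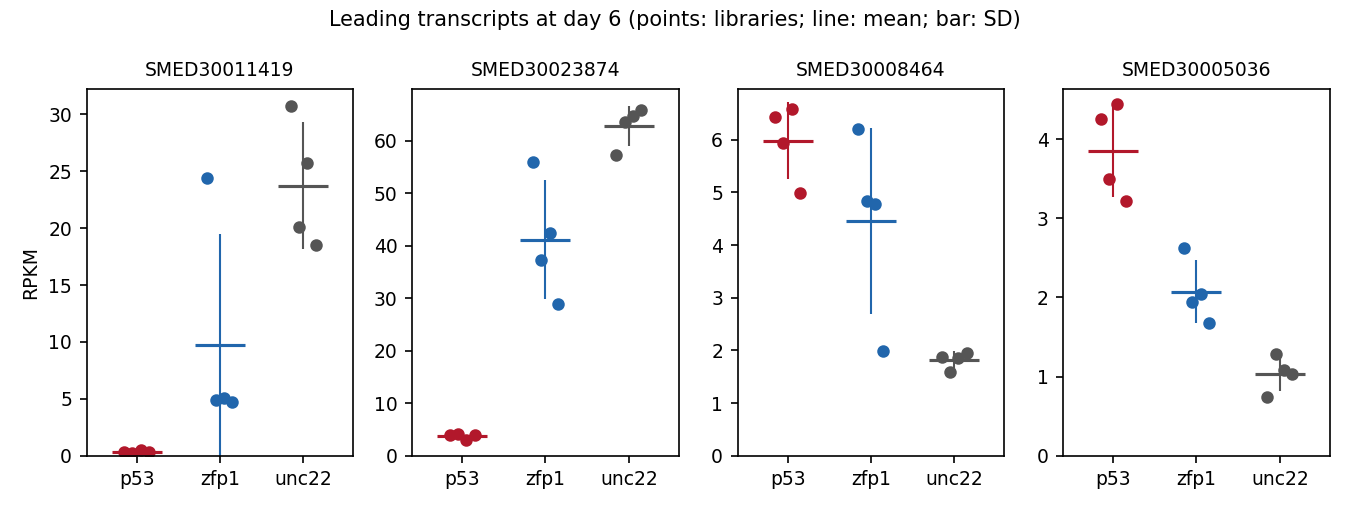
RPKM at day 6 of the 2 transcripts with the largest falls and the 2 with the largest rises, in p53, zfp1 and unc22 RNAi libraries (points), with the group mean (line) and SD (bar), n = 4 each. The 4 were chosen among called transcripts whose p53 and unc22 libraries do not overlap. The zfp1 libraries lie between these groups, with exceptions in replicate 1. It is at 24.4 RPKM for SMED30011419, within the unc22 range, and at 6.2 RPKM for SMED30008464, within the p53 range.

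Most of the changed transcripts were weakly or moderately expressed, as were most of those tested. Levels were taken from the unc22 libraries of day 9, whose values are not part of the day 6 fold changes, although they enter the spread and the filter. There the lower transcripts had a median of 4.69 RPKM and the higher ones 2.86 RPKM, against 3.68 RPKM over all tested transcripts. The share of transcripts called lower was 0.541% below 2 RPKM, 0.832% between 2 and 5 RPKM and 1.01% between 5 and 20 RPKM. It was 0.584% between 20 and 100 RPKM and 0.216% from 100 RPKM. The share called higher was 0.374%, 0.743%, 0.450%, 0.184% and 0.108% in the same order. The 19 falls between 20 and 100 RPKM had a median log2 fold change of -1.72 and the 2 falls from 100 RPKM one of -1.88, against -0.94 in the 39 falls below 2 RPKM, where the added 1 RPKM leaves little room to fall. The lower transcripts had a median length of 1226 bases and the higher ones of 1600 bases, as recovered from the values, against 1074 bases over all tested transcripts.

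From 100 RPKM in the day 9 controls 3 of 927 transcripts were called, against 1.1% of all tested transcripts. They are named here after their values were seen. SMED30023708 was at 22.0, 27.0, 22.8 and 25.2 RPKM after p53 RNAi, against 144, 151, 160 and 180 RPKM after unc22 RNAi (log2 fold change -2.66 ± 0.26, SE). SMED30002081 was at 57.1, 49.6, 50.6 and 50.4 RPKM after p53 RNAi, against 113, 120, 111 and 105 RPKM after unc22 RNAi (-1.10 ± 0.19, SE). SMED30000949 was the abundant transcript that rose, with 187, 184, 201 and 277 RPKM after p53 RNAi against 99.9, 92.3, 103 and 107 RPKM after unc22 RNAi (1.06 ± 0.19, SE). In all 3 the groups did not overlap. The 118 most abundant transcripts, from 1000 RPKM, held no call. With 1.1% of all tested transcripts called, a list of this size would hold few calls. None of the 118 had an unadjusted p under 0.05 in limma, against 1177 of all 19206. Their median log2 fold change was -0.11 and 91 of them had a negative one, against 50.2% of all tested transcripts. Their values lay between -0.44 and 0.63.

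As lists, the changed transcripts made up a small part of the reads. The lower ones took 0.0671% to 0.0829% of the reads of a library after p53 RNAi, against 0.223% to 0.230% after unc22 RNAi. Their median transcript was at 1.04 to 1.40 RPKM in the p53 libraries and at 4.61 to 5.14 RPKM in the unc22 libraries. The higher ones took 0.189% to 0.229% after p53 RNAi, against 0.103% to 0.116% after unc22 RNAi. Their median transcript was at 5.80 to 7.05 RPKM in the p53 libraries and at 2.89 to 3.55 RPKM in the unc22 libraries. The lists were chosen on these libraries, so the separation of the groups is a description. None of the lower transcripts was at 0 reads in all of the 4 p53 libraries, and 25 were at 0 in at least 1 of them.

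The day 6 lists were then followed at days 9 and 13. The fold changes of the 3 days share no library, but the libraries of all days enter the spread and the filter behind the day 6 calls. At day 9, 128 of the 133 lower transcripts were again called lower and all 133 had a negative log2 fold change, against 2.06% of all tested transcripts called lower and 50.7% negative on that day. 72 of the 79 higher transcripts were again called higher and all 79 had a positive log2 fold change, against 1.85% and 49.3% of all tested transcripts. The lower list had a median log2 fold change of -1.09 at day 6 and -1.35 at day 9, and the higher list 0.82 and 0.93. At day 13, 122 of the lower list were called lower (median -1.49) and 73 of the higher list were called higher (median 1.23), against 8.35% and 8.96% of all tested transcripts. Over all tested transcripts the median was 0 on all 3 days. Without the 3 libraries that stood apart, one of which is a day 13 control, 121 and 71 of the lists were called in their direction at day 13, with medians of -1.45 and 1.25, against 6.67% and 7.64% of all tested transcripts.

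To keep the days apart, the day 6 lists were also drawn with the spread and the filter (1 RPKM in at least 3) from the 8 libraries of day 6 alone. This alternative was chosen after seeing the data. Of 16448 transcripts tested it called 155 lower (0.942%) and 148 higher (0.9%), of which 106 and 65 are in the lists above. In the 8 libraries of day 9, fitted alone, 153 of the 155 were negative and 117 were called lower, against 51.4% and 1.47% of all transcripts tested there. Of the 148, 145 were positive and 82 were called higher, against 48.6% and 1.35%. The medians at day 9 were -1.21 and 0.81, and those at day 6 were -1.01 and 0.76.

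120 of the 133 lower transcripts were called lower on all 3 days, and so were 69 of the 79 higher ones in their direction. Of all tested transcripts at most 2.06% were called lower at both later days and at most 1.85% higher, the shares of day 9 alone. 3 transcripts of each list were called at neither later day. In the p53 libraries the median transcript of the lower list was at 1.21 ± 0.158 RPKM at day 6, 0.781 ± 0.0751 RPKM at day 9 and 0.942 ± 0.140 RPKM at day 13 (SD of library medians, n = 4 each). In the unc22 libraries it was at 4.81 ± 0.229 RPKM (n = 4), 4.98 ± 0.286 RPKM (n = 4) and 5.69 ± 0.510 RPKM (n = 3). For the higher list these medians were 6.64 ± 0.583, 6.68 ± 0.400 and 7.90 ± 0.393 RPKM in the p53 libraries and 3.20 ± 0.271, 2.92 ± 0.207 and 2.16 ± 0.282 RPKM in the unc22 libraries. The groups did not overlap on any day.

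**Figure D3:**
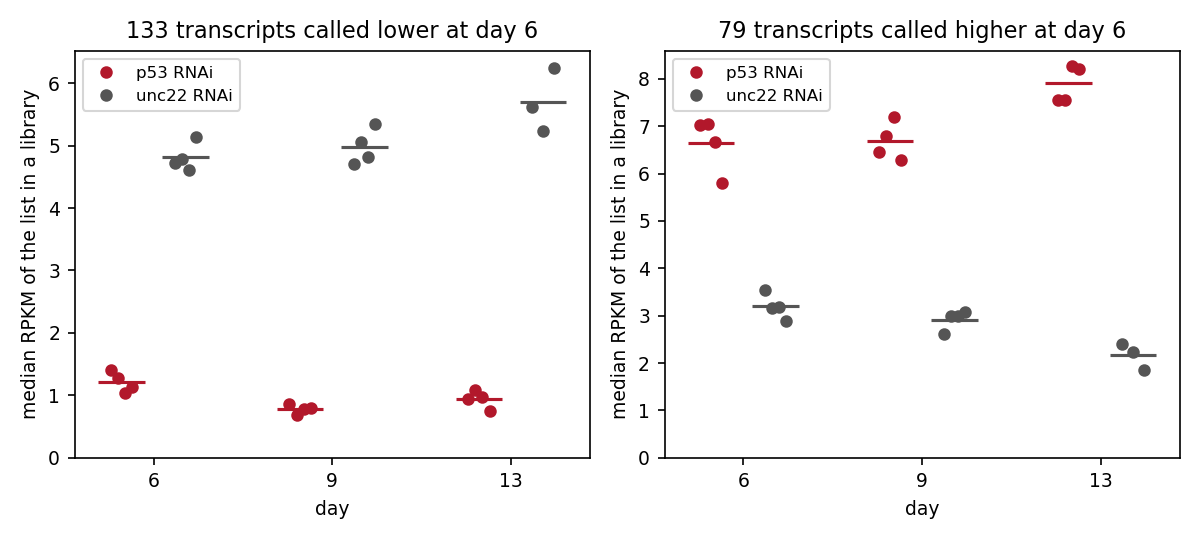
Median RPKM in each library (points; line, mean of the group) of the 133 transcripts called lower (left) and the 79 called higher (right) at day 6, by day, with p53 RNAi left of unc22 RNAi. The lists were chosen on the day 6 libraries; at days 9 and 13 the p53 libraries lie at 0.680 to 1.09 RPKM in the left panel, below all unc22 libraries, and at 6.28 to 8.27 RPKM in the right panel, above them.

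The leading transcripts kept their changes to different degrees. SMED30011419 was at 0.282 ± 0.195 RPKM after p53 RNAi at day 9 against 20.9 ± 1.08 RPKM after unc22 RNAi (log2 fold change -4.10 ± 0.32, SE, n = 4 each), about as at day 6. SMED30023874 was at 2.53 ± 0.696 RPKM after p53 RNAi against 72.1 ± 17.7 RPKM after unc22 RNAi at day 9 (-4.37 ± 0.20, SE, n = 4 each). SMED30008464 rose by 1.20 ± 0.21 (SE) at day 9 and 0.96 ± 0.22 (SE) at day 13. SMED30005036 rose by 1.15 ± 0.18 (SE) at day 9, while at day 13 it was not called, with a value of 0.29 ± 0.20 (SE; limma, adjusted p = 3.3e-01). Its levels at day 13 were 2.04 ± 0.241 RPKM (SD, n = 4) after p53 RNAi and 1.56 ± 0.855 RPKM (SD, n = 3) after unc22 RNAi, where replicate 5, which stood apart, was at 2.55 RPKM and the others at 1.03 and 1.11 RPKM. Without that replicate the groups did not overlap and the value was 0.55 ± 0.20 (SE; limma, adjusted p = 9.9e-02), still not called. The difference between its day 13 and day 6 effects was -0.96 ± 0.27 (SE; adjusted p = 5.4e-02, limma), and -0.70 ± 0.26 (SE; adjusted p = 3.0e-01, limma) without that replicate.

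**Figure D4:**
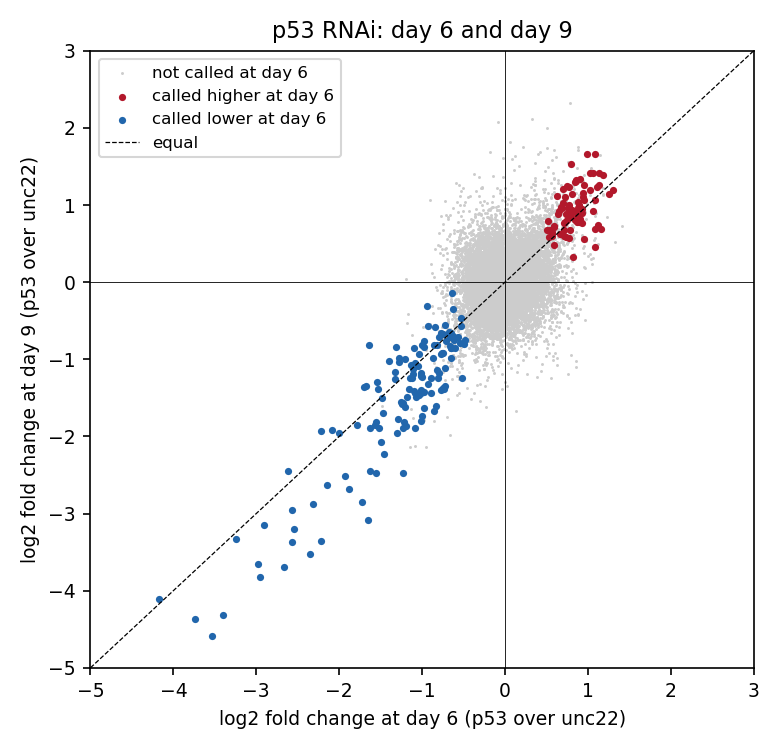
Log2 fold change of RPKM + 1, p53 RNAi over unc22 RNAi, at day 6 (x axis) and day 9 (y axis) for 19206 tested transcripts; the days share no library. Transcripts called lower (blue) and higher (red) at day 6 keep their sign at day 9, with medians of -1.35 and 0.93, and lie on both sides of the dashed line of equal change.

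The share of transcripts called at day 9 fell off with the adjusted p at day 6. It was 94.3% (200 of 212, in the same direction) for those called at day 6. For an adjusted p between 0.05 and 0.1 it was 70.4% (38 of 54), between 0.1 and 0.2 it was 57.1% (60 of 105), and between 0.2 and 0.5 it was 28.2% (81 of 287). For the 18548 transcripts with an adjusted p from 0.5 it was 1.83%. None of the transcripts with an adjusted p under 0.5 at day 6 was called in the opposite direction at day 9, and 33 of those from 0.5 were. Both days were tested with the same spread for each transcript, and a small spread favours calls on both. Part of the fall-off may therefore be built in, and it was not repeated with the days fitted apart. Of the transcripts that changed by at least 1 at day 6 without a call, 6 of 10 lower and 5 of 24 higher ones were called the same way at day 9. Of all tested transcripts 2.06% were called lower and 1.85% higher on that day.

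**Figure D5:**
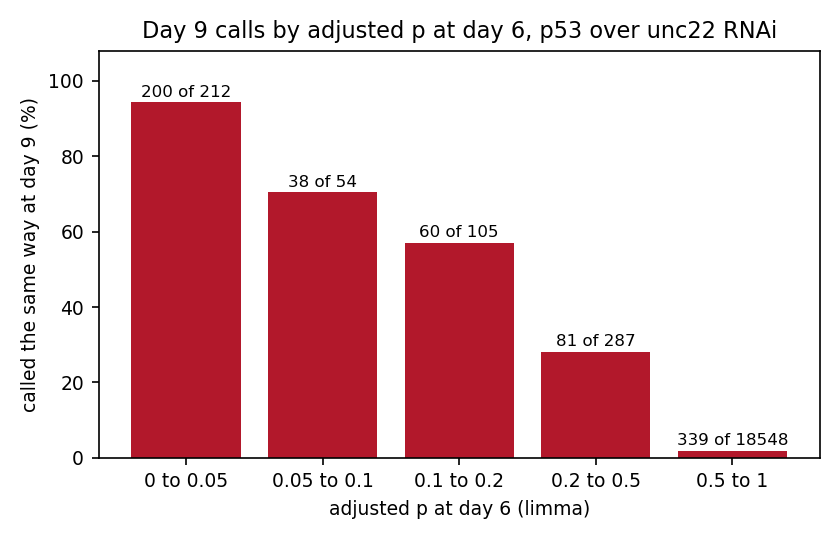
Percent of transcripts called in the same direction at day 9 (bar height; counts above the bars) by their adjusted p at day 6 in limma, p53 RNAi over unc22 RNAi. The share is 94.3% for transcripts called at day 6 and 1.83% for those with an adjusted p from 0.5. Both days share the spread of each transcript, so part of the fall-off may be built in.

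Read from the later days, part of the response was present at day 6. Of the 396 transcripts called lower at day 9, 380 were already on the negative side at day 6 and 128 were called there (32.3%), against 50.2% and 0.692% of all tested transcripts. Their median was -0.49 at day 6 and -0.83 at day 9. Of the 355 called higher at day 9, 338 were on the positive side at day 6 and 72 were called there (20.3%), against 49.7% and 0.411% of all tested transcripts. The medians were 0.49 at day 6 and 0.84 at day 9. Of the calls at day 13 a smaller part was there at day 6, 122 of 1603 lower transcripts (7.61%) and 73 of 1720 higher ones (4.24%), to be read against the same 0.692% and 0.411%. Their day 6 medians were -0.11 and 0.22, against -0.73 and 0.91 at day 13.

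The test of the difference itself found no transcript whose p53 effect differed between days 9 and 6 (limma, adjusted p under 0.05). 780 of 19206 had an unadjusted p under 0.05, and limma-voom on the recovered reads called none either. Leaving out the 3 libraries that stood apart gave 13 calls, and weighting all libraries by quality gave 73. Between days 13 and 6 the effect differed for 376 transcripts, 275 of them more positive at day 13 (1.43% of those tested) and 101 more negative (0.526%). 254 of the 275 and 85 of the 101 were not called at day 6, where their medians were 0.12 and -0.09 over the whole of these lists. Without unc22 RNAi day 13 replicate 5 the count was 194 in place of 376, and without p53 RNAi day 13 replicate 3 it was 248. Without all 3 libraries that stood apart, this unc22 library among them, it was 486.

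The leading differences were mostly of transcripts whose groups overlapped at day 6. SMED30013183 was at 5.23, 4.81, 5.44 and 6.34 RPKM after p53 RNAi at day 6, against 8.19, 7.98, 5.97 and 12.7 RPKM after unc22 RNAi. The groups overlapped, and the change of -0.55 ± 0.25 (SE; limma, adjusted p = 6.9e-01) was not called. At day 9 it was called lower, at -1.16 ± 0.25 (SE). At day 13 it was at 61.6 ± 5.57 RPKM (SD, n = 4) after p53 RNAi against 8.44 ± 4.51 RPKM (SD, n = 3) after unc22 RNAi, a difference between the days of 3.38 ± 0.36 (SE). SMED30030712 had a difference of 3.30 ± 0.31 (SE), with 4.62 ± 0.649 RPKM after p53 RNAi and 5.54 ± 0.929 RPKM after unc22 RNAi at day 6 (SD, n = 4 each).

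On the negative side, SMED30004081 was at 15.9, 10.5, 12.8 and 9.88 RPKM after p53 RNAi at day 6, against 29.5, 26.1, 28.2 and 28.5 RPKM after unc22 RNAi. The groups did not overlap, but the change of -1.15 ± 0.32 (SE, adjusted p = 7.9e-02 in limma) was not called. At day 13 it was at 3.9 ± 0.929 RPKM (SD, n = 4) after p53 RNAi and 72.1 ± 19.6 RPKM (SD, n = 3) after unc22 RNAi. The controls thus also moved, from a mean of 28.1 RPKM at day 6. The difference between the days was -2.73 ± 0.47 (SE). SMED30028221 was at 21.4 ± 7.07 RPKM after p53 RNAi and 17.0 ± 3.97 RPKM after unc22 RNAi at day 6 (SD, n = 4 each). At day 13 it was at 6.53 ± 2.5 RPKM (SD, n = 4) after p53 RNAi and 36.1 ± 20.0 RPKM (SD, n = 3) after unc22 RNAi. Replicate 5 of these unc22 libraries, which stood apart, was at 58.6 RPKM. The difference between the days was -2.50 ± 0.60 (SE). The call of SMED30028221 ended without p53 RNAi day 6 replicate 4 (adjusted p = 5.1e-02, limma), p53 RNAi day 13 replicate 3 (adjusted p = 6.2e-02, limma) or unc22 RNAi day 13 replicate 5 (adjusted p = 1.3e-01, limma). It also ended when a replicate block was added and only the compared groups were fitted, at -1.85 ± 0.43 (SE; adjusted p = 5.9e-02, limma).

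2 transcripts, named here after their values were seen, were called lower at day 6 and higher at day 13. They were picked for these opposite calls. A positive difference between the days was therefore fixed by the choice, and its adjusted p is no separate support. SMED30021960 was at 1.84, 1.40, 1.54 and 0.953 RPKM after p53 RNAi at day 6, against 3.97, 3.48, 3.68 and 3.83 RPKM after unc22 RNAi (log2 fold change -0.97 ± 0.15, SE). At day 13 it was at 4.27, 4.27, 4.38 and 4.88 RPKM after p53 RNAi, against 2.07, 1.97 and 1.36 RPKM after unc22 RNAi (0.97 ± 0.16, SE). The groups did not overlap on either day, and the difference between the days was 1.94 ± 0.22 (SE; adjusted p = 2.4e-06, limma). SMED30023530 was at 3.02, 2.01, 2.96 and 3.68 RPKM after p53 RNAi at day 6, against 4.84, 5.04, 4.61 and 5.93 RPKM after unc22 RNAi (-0.65 ± 0.16, SE; adjusted p = 3.3e-02, limma). At day 13 it was at 14.5 ± 1.86 RPKM (SD, n = 4) after p53 RNAi and 8.99 ± 2.37 RPKM (SD, n = 3) after unc22 RNAi, a difference between the days of 1.31 ± 0.24 (SE). Its day 6 call ended in 13 of 23 alternatives, among them the removal of any 1 of the 8 libraries except p53 RNAi replicate 4, and the adjusted p over the alternatives ran from 1.6e-03 to 2.1e-01 (limma).

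The p53 and zfp1 comparisons of day 6 used the same unc22 libraries, so their values are set side by side and not read as independent. The 133 transcripts lower after p53 RNAi had a median log2 fold change of -1.09 after p53 RNAi and -1.07 after zfp1 RNAi. The 79 higher ones had medians of 0.82 after p53 RNAi and 0.60 after zfp1 RNAi. In libraries of zfp1 and unc22 RNAi at day 13, whose fold changes share no library with those of day 6, 109 of the 133 were called lower and 61 of the 79 higher, against 2.12% and 2.31% of all tested transcripts. Without the 3 libraries that stood apart these counts were 113 and 63, against 2.3% and 2.4% of all tested transcripts.

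The direct test of p53 against zfp1 RNAi at day 6 needs no control library for its log2 difference. It called 20 transcripts, 9 lower after p53 RNAi (0.0469% of those tested) and 11 higher (0.0573%). Against unc22 RNAi, 5 of the 9 were called lower after p53 RNAi and 2 higher, and 3 of the 11 were called higher and 2 lower. Of all tested transcripts 0.692% were called lower and 0.411% higher there. After zfp1 RNAi against unc22, 3 of the 9 were called higher and 3 lower, and 6 of the 11 were called lower and 0 higher. The median log2 fold changes after p53 and zfp1 RNAi were -0.66 and 0.24 for the 9, and 0.04 and -0.75 for the 11. These calls share libraries with the direct test. SMED30023874 and SMED30011419, the leading falls against unc22, were also the most different here, with log2 differences of -3.11 ± 0.20 and -2.66 ± 0.32 (SE). After zfp1 RNAi SMED30023874 was at 56.0, 37.3, 42.5 and 28.9 RPKM, each above the highest p53 library (4.09 RPKM). SMED30011419 was at 24.4, 4.87, 5.03 and 4.73 RPKM after zfp1 RNAi, where the high value is that of replicate 1, which stood apart. All 4 were above the highest p53 library (0.535 RPKM). Such separation was a condition for being named here. Against unc22 RNAi, SMED30011419 was itself called lower after zfp1 RNAi, at -1.52 ± 0.32 (SE) at day 6. At day 13 it was at -3.99 ± 0.34 (SE) after zfp1 RNAi and -4.04 ± 0.34 (SE) after p53 RNAi, so there the knockdowns were alike. SMED30023874 was at -0.84 ± 0.21 (SE) after zfp1 RNAi and -4.27 ± 0.21 (SE) after p53 RNAi at day 13.

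SMED30000938 was higher after p53 than after zfp1 RNAi while called lower in both against unc22. It was at 2.49, 2.14, 2.14 and 2.46 RPKM after p53 RNAi, at 0.495, 0.308, 0.438 and 0.253 RPKM after zfp1 RNAi, and at 5.57, 5.42, 5.85 and 5.95 RPKM after unc22 RNAi. The 3 groups did not overlap, and the p53 libraries lay between the others. The log2 difference was 1.27 ± 0.15 (SE; adjusted p = 8.0e-06, limma). Against unc22 RNAi it fell by 1.02, 1.81 and 2.57 on the log2 scale at days 6, 9 and 13 of p53 RNAi, and the day 13 effect differed from that of day 6 by -1.55 ± 0.23 (SE; adjusted p = 1.1e-04, limma). After zfp1 RNAi it was at 0.374 ± 0.112 RPKM at day 6 and 0.357 ± 0.187 RPKM at day 13 (SD, n = 4 each).

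SMED30025901 was the other leading transcript higher after p53 than after zfp1 RNAi (1.33 ± 0.27, SE; adjusted p = 3.2e-02, limma). It rested on 7 to 17 reads in each p53 library and on 0, 9, 3 and 0 reads in the zfp1 libraries, and its call ended in 11 of 22 alternatives. The comparison of p53 with zfp1 RNAi as a whole depended on the spread lent by other groups. In a fit on these 8 libraries alone only SMED30023874 was called, and the log2 difference of SMED30011419 had an SE of 0.45 (adjusted p = 5.3e-01, limma). The count of 20 was 9, 13 and 13 without p53 RNAi day 6 replicate 1, 3 or 4, 10 without zfp1 RNAi day 6 replicate 4, and 55 without the 3 libraries that stood apart.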

How the data were processed

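PolyA RNA of sorted X1 cells was sequenced from Illumina TruSeq libraries, per the labels' protocols. The authors deposited RPKM values for 25462 transcripts in 35 libraries. The submitters' processing notes list edgeR, Bowtie and CASAVA 1.8.2 without saying what each did, and the transcript assembly is not given in the sources used here. Groups and replicate numbers came from the labels. They do not say whether replicates came from separate cohorts of animals. The p-values therefore cover the spread between these libraries only, which may be technical. The lowest chi-square per transcript between replicates of day 6 p53 or unc22 RNAi was 4.42, above sampling noise.

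Whole reads were recovered with numpy 2.4.6 by finding a length for each transcript and a divisor for each library that make all values whole multiples of 1 read. All values (100.0%) came out whole within 0.01 reads, and the divisors were 0.617 to 1.207 times the library totals, with a geometric mean of 1.0. Intervals from reads cover counting error only, and few reads give a wide one.

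RPKM is not a count. The test was limma 3.58.1 (R 4.3.3) on log2(RPKM + 1), with a mean for each of 9 groups, a shared spread and its trend on intensity, over the 19206 transcripts that reached 1 RPKM in 3 or more libraries. The 4 comparisons were p53 with unc22 and with zfp1 RNAi at day 6, and the p53 effect at days 9 and 13 minus that at day 6. Both steps were tested on simulated data. Named are the 2 largest falls and 2 largest rises called in each comparison, with no overlap of libraries in comparisons within day 6; others are marked as chosen later. The comparison, lists and alternatives were chosen with earlier results of these data known. Alternatives were other pseudocounts (0.1 and 5 RPKM), filters, scalings (median-ratio, quantile, cyclic loess), a log2 fold minimum of 1, replicate blocks, fits limited to the compared groups, robust empirical Bayes, limma-voom of recovered reads (also with quality weights), and leaving out libraries. Day 13 values without unc22 replicate 5, day 6 lists followed without the 3 libraries that stood apart, day 6 lists from the day 6 libraries alone, and the block within the compared groups were added after seeing the data. Marker lists of neoblasts, epidermal progeny and other cell types could not be applied, since no identifier is paired with a name.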

Additional observations from a re-analysis of the deposited data

Results flagged for a closer look

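Of 71 sets of 4 library values tested for a sample far from the others, 8 were marked, and chance marks about 1 in 20. After p53 RNAi at day 6, SMED30023874 was low in replicate 3 (3.04 RPKM against 3.99 to 4.09 RPKM), SMED30028221 low in replicate 2 (10.8 RPKM against 24.8 to 25.2 RPKM), and SMED30002081 high in replicate 1 (57.1 RPKM against 49.6 to 50.6 RPKM). Among the unc22 libraries of day 6, replicate 3 was deeper, with 13.9 M reads. After zfp1 RNAi at day 6, replicate 1 was high for SMED30011419 (24.4 RPKM), SMED30030712 (12.1 RPKM) and SMED30002081 (128 RPKM), and replicate 4, the shallowest library, for SMED30000949 (445 RPKM).

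The p53 effect differed between days 13 and 6 for 376 transcripts by limma's test of that difference. Among the named ones the difference in log2 fold change was 3.38 for SMED30013183, 3.30 for SMED30030712, 1.94 for SMED30021960, 1.31 for SMED30023530, -2.73 for SMED30004081 and -2.50 for SMED30028221.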

How the results depend on the processing

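The named log2 fold changes kept their direction under all alternatives run (473 values of 19 results), and 33 of these values lost the call. Some alternatives, such as the fold minimum, the filters and robust empirical Bayes, leave the log2 fold change itself as it was. They could end a call but could not reverse a direction. The count of 212 for p53 against unc22 RNAi at day 6 became 97 with a log2 fold minimum of 1, 94 among transcripts of at least 5 RPKM, 956 with quality weights and 417 without the 3 libraries that stood apart. It was 142 to 194 with 1 library left out, where 142 to 180 of the 212 kept call and direction. In a fit on the 8 compared libraries alone it was 294 (145 higher, 149 lower), with 174 of the 212 kept. The count of 20 for p53 against zfp1 RNAi became 9, 13, 21 and 55 under these 4 settings, 11 with limma-voom, 1 in a fit on both groups alone, and 9 to 27 with 1 library left out. The count of 376 for the difference between days 13 and 6 became 248 with the fold minimum, 105 from 5 RPKM and 2016 with quality weights, and 194 to 452 with 1 library left out. That between days 9 and 6 stayed at 0 with 1 library left out, and was 73 with quality weights and 13 without the 3 libraries. The cause was not tested, beyond that fewer transcripts were tested under the stricter filter.

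Replicate numbers recur between the groups, but the labels give them no meaning, so they were not taken as pairs in the main test. Deviations from the group means of p53 and unc22 libraries with the same number correlated at 0.35, 0.21, -0.04 and 0.40 at day 6. Replicates 1, 2 and 4 of p53 RNAi correlated best with their own number among the unc22 libraries, and replicate 3 with number 1. The main test thus leaves out a link that libraries of the same number may have. With a replicate block the count of 212 became 290, of which 210 had been called before in the same direction. In the block fit on these groups alone, added after seeing the data, it was 1213 (504 higher, 709 lower), with 195 of the 212 kept. The block took the zfp1 comparison to 35 calls (1 on its groups alone) and the difference between days 9 and 6 to 1.

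Depth limits the weak transcripts most: SMED30011419 rests on 8 reads after p53 RNAi at day 6. The 6256 transcripts below the filter were left out of the main test, and the alternative without a filter included them.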
